A study of Homo sapiens with 12 samples.

Results

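PTGDS, LCN2, APOD and APOM are lipocalin genes, and their array signal was followed in PANC-1 cells, an established human line derived from a ductal carcinoma of the pancreas. They were found as the probes annotated with these symbols, 4 of 47323 probes with 1 for each gene, and they stand for 4 of 20046 annotated genes. The members were chosen by their measured intensity over the 3 groups, so every comparison of the groups had already been used in choosing them. The cells carried, in every group, a stably introduced form of the basic helix-loop-helix factor E47 that tamoxifen switches on. Illumina bead arrays were hybridised with RNA of 4 untreated samples, 4 samples exposed to tamoxifen at 1 µM and 4 exposed at 4 µM, both for 48 h. No time or vehicle is recorded for the untreated samples, and tamoxifen was not given to cells lacking the inducible E47 in any group, so E47 activity, tamoxifen itself and a difference in time or vehicle cannot be told apart. Neither the number of clones behind the line nor separate cultures for the replicates are stated, so errors and p-values measure differences among these particular samples and may reflect technical spread.

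Lipocalins are small secreted proteins that fold into a barrel with a pocket for a greasy ligand. PTGDS encodes lipocalin-type prostaglandin D synthase, which turns prostaglandin H2 into prostaglandin D2 and can also carry retinoids. LCN2 encodes lipocalin 2, also called neutrophil gelatinase-associated lipocalin, which withholds iron from bacteria by binding their siderophores and is made by many stressed epithelia, the pancreatic duct among them. APOD encodes apolipoprotein D, a carrier of arachidonic acid and progesterone that rises in growth-arrested cells. APOM encodes apolipoprotein M, which carries sphingosine 1-phosphate on plasma lipoproteins.

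E47 binds E-boxes, so the promoters of the members are shown with their E-boxes. RefSeq promoters (GRCh38.p14, 250 bases before to 50 after the annotated start) were matched for 3 of the 4 members, PTGDS, LCN2 and APOM; APOD was not matched. The 250 bases before each start are printed from 5′ to 3′, with every E-box (CANNTG, which reads alike on both strands) in capitals.
PTGDS chr9:136977254-136977503 (+ strand): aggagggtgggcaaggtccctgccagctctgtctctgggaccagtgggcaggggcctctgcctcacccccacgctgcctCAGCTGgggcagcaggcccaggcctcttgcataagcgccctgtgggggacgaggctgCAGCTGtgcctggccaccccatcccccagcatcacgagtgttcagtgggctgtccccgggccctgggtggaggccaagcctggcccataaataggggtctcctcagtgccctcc
LCN2 chr9:128149203-128149452 (+ strand): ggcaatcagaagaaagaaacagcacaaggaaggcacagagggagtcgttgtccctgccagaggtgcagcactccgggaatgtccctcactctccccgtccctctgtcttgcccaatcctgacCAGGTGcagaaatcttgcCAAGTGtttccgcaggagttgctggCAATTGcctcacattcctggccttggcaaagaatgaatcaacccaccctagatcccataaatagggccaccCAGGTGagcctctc
APOM chr6:31655644-31655893 (+ strand): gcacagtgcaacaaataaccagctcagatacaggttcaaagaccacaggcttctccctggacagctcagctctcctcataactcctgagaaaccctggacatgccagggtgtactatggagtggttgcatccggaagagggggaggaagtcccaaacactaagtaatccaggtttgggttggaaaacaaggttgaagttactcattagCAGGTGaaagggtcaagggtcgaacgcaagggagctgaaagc
The PTGDS promoter held 2 E-boxes, both CAGCTG, starting at -171 and -114 from the annotated start. The LCN2 promoter held 4, starting at -128, -110, -85 and -14, of which the first and the last read CAGGTG. The APOM promoter held 1, CAGGTG, starting at -42.

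E-boxes are common in such windows. Of 35116 RefSeq promoters, 68.7% held at least 1 CANNTG, 36.4% at least 2 and 5.58% at least 4. The forms CAGCTG and CAGGTG (the latter searched on both strands as CAGGTG and CACCTG) are subsets of CANNTG. At least 1 CAGCTG was found in 17.9% of promoters and at least 2 in 2.05%, and at least 1 CAGGTG in 20.6% and at least 2 in 3.49%. A match describes these letters and not binding.

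The PTGDS and LCN2 promoters also shared an unbroken run of 13 bases just before their starts, at -31 to -19 in PTGDS and at -32 to -20 in LCN2. It was picked as the longest run that both promoters share, after the sequences had been read, and all of it is in capitals here.
shared run: CCCATAAATAGGG
It contains ATAAATA, which 4.93% of promoters held on either strand. The whole run was found in 2 of 35116 promoters, those of PTGDS and LCN2. As the longest match of this pair it was bound to be in both, so nothing is read from that count.

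**Figure D1:**
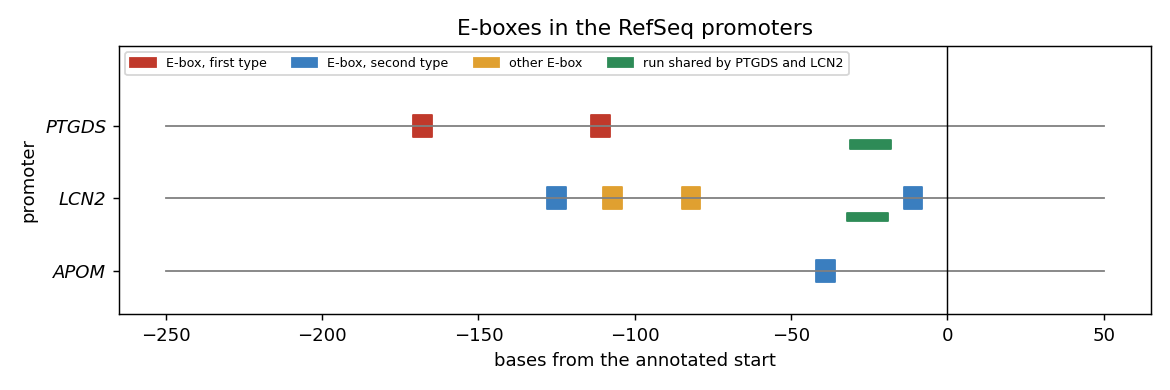
E-boxes in the RefSeq promoters of PTGDS, LCN2 and APOM, by distance in bases from the annotated start (0, vertical line). Red blocks are CAGCTG, blue blocks CAGGTG, orange blocks other E-boxes, and green bars the 13-base run shared by PTGDS and LCN2. PTGDS has 2 E-boxes, LCN2 4 and APOM 1.

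In treated cells, PTGDS, LCN2 and APOD read far above the background of the array, whereas on untreated arrays none of them did. APOM stayed close to background in all 3 groups. As these intensities chose the genes, they are given as a description with no test. Values are the deposited intensities, which are linear and quantile-normalized between arrays, so that each array has the same distribution and a change common to all genes would be hidden. Above background means an intensity over 127.7, a threshold set from the lower side of the distribution of all intensities.

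PTGDS (probe ILMN_1664464) read 126.8, 126.7, 112.3 and 89.2 on untreated arrays 1 to 4. At 1 µM it read 2811, 3005, 2595 and 1930, and at 4 µM 4889, 4440, 4324 and 3604. No 2 groups overlapped, and the 4 arrays at the higher dose all lay above the 4 at the lower dose. Untreated arrays 1 and 2 lay just under the threshold, and with a lower estimate of it (123.8) they would count as above. Because untreated signal was only a bound, PTGDS was at least 22.1-fold higher at 1 µM and at least 37.2-fold higher at 4 µM. Bounds are set between log2 means after background correction, with untreated values under the threshold raised to it. On the deposited intensities, without that correction, the PTGDS bounds were 20-fold and 33.6-fold. Between the doses, PTGDS was 1.69-fold higher at 4 µM (log2 difference 0.75 ± 0.14, standard error, n = 4 arrays per group).

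LCN2 (probe ILMN_1692223) read 119.0, 106.4, 118.4 and 120.0 on untreated arrays 1 to 4. At 1 µM it read 3088, 3547, 2662 and 3172, and at 4 µM 3628, 2506, 2495 and 2617. Both treated groups lay wholly above the untreated one, but they overlapped each other, since 4 µM array 1 was the highest of all and the other three 4 µM arrays were below every 1 µM array. LCN2 was at least 26.8-fold higher at 1 µM and at least 24-fold higher at 4 µM, or 24.3-fold and 21.7-fold without background correction. The log2 difference of 4 µM from 1 µM was -0.16 ± 0.12 with all arrays and -0.29 without 4 µM array 1.

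APOD (probe ILMN_1780170) read 68.1, 80.3, 76.9 and 67.8 on untreated arrays 1 to 4, below the mode of all intensities (101.8). At 1 µM it read 1096, 1273, 1620 and 1212, and at 4 µM 1720, 1189, 1281 and 1159. The treated groups lay wholly above the untreated one and overlapped each other through most of their range. APOD was at least 11.1-fold higher at 1 µM and at least 11.4-fold higher at 4 µM, or 10.1-fold and 10.3-fold without background correction. The untreated APOD values lay further under the threshold to which they were raised than those of PTGDS and LCN2, and the measured means were 73.3 ± 6.33 untreated (SD, n = 4), 1300.1 ± 226 at 1 µM and 1337 ± 261 at 4 µM. The log2 difference between the doses was 0.04 ± 0.13.

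APOM (probe ILMN_1731941) read 172.7, 132.9, 157.3 and 150.8 on untreated arrays 1 to 4. At 1 µM it read 97.7, 110.2, 139.7 and 127.3, and at 4 µM 124.6, 151.5, 151.3 and 138.1. All 4 untreated arrays were above background, 1 of 4 at 1 µM and 3 of 4 at 4 µM, and neighbouring groups overlapped. Its log2 difference from untreated cells was -0.42 ± 0.12 at 1 µM and -0.13 ± 0.12 at 4 µM, and 4 µM exceeded 1 µM by 0.29 ± 0.12. Unlike the other members, APOM had its lowest group mean at 1 µM (119 ± 18.5, SD, n = 4), against 153 ± 16.5 untreated and 141 ± 12.8 at 4 µM.

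**Figure D2:**
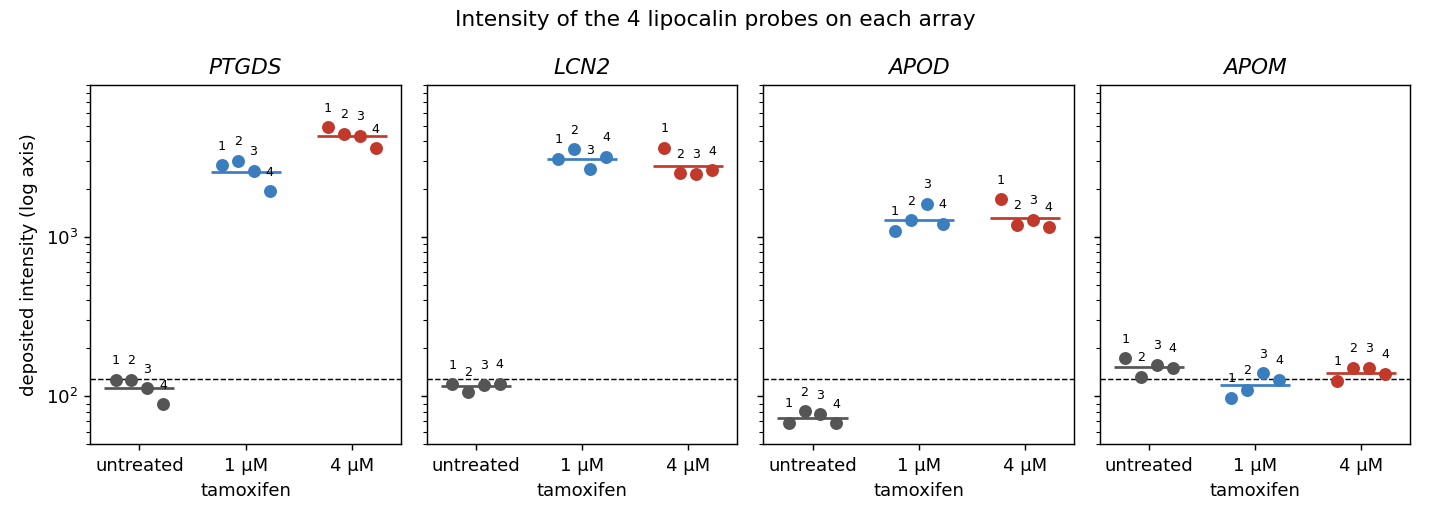
Deposited intensity (log axis) of the PTGDS, LCN2, APOD and APOM probes on each array, with the replicate number above each point. Horizontal bars are geometric means of 4 arrays and the dashed line is the background threshold of 127.7. Treated arrays of PTGDS, LCN2 and APOD read between 1096 and 4889, above all untreated arrays of these genes, while APOM stays between 97.7 and 172.7.

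All 4 members passed the filter of at least 4 arrays above background. PTGDS, LCN2 and APOD passed it only through their treated arrays and so had to differ from untreated cells. Their treated arrays lay wholly above the untreated ones at both doses, for 3 of 4 members. Among the 22807 detected probes the untreated and treated arrays did not overlap for 35% at 1 µM (16.9% higher and 18.1% lower) and for 39.3% at 4 µM (19.6% higher and 19.8% lower). Since the same contrast chose the genes, nothing is read from that count.

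One array touches several of these values. On 4 µM array 1, PTGDS, LCN2 and APOD were each the highest of their group, at 1.19, 1.43 and 1.42 times the mean of the other three arrays, and APOM was the lowest, at 0.848 times. That array also stood apart on the second principal component of all detected probes (8.06% of the variance), at -3.64 against -19.5 to -15.6 for the other 4 µM arrays. Without it, LCN2 read 2495 to 2617 at 4 µM and 2662 to 3547 at 1 µM, so the doses no longer overlapped, and the log2 difference between doses for APOD changed from 0.04 to -0.09. PTGDS remained higher at 4 µM without it (log2 difference 0.69). The part of that array in these results was not tested further.

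Replicates of the members were close compared with the gap between untreated and treated arrays. Within treated groups, the highest array exceeded the lowest by 1.56 times at 1 µM and 1.36 times at 4 µM for PTGDS, 1.33 and 1.45 times for LCN2 and 1.48 times at both doses for APOD. Among these 3 genes, the 2 doses did not overlap for PTGDS alone, with the lowest 4 µM array at 3604 and the highest 1 µM array at 3005. The same intensities chose the genes, so this is a description and no separate result. Across all detected probes, 13.5% had 4 µM and 1 µM arrays that did not overlap, 6.9% with 4 µM higher and 6.55% with 4 µM lower.

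The genes whose log2 values followed each member best over the 12 arrays were sought among 12450 other detected genes. Such correlations are dominated by the gap between untreated and treated arrays and are given as a description. As the genes were picked by their likeness over these same arrays, a shared order of the doses is no separate result. PTGDS was followed by SOX8, a transcription factor gene (r = 0.998, group median intensities of 247, 2798 and 3973 from untreated to 4 µM), then MAN1C1, RAB3IL1, NDP and the growth factor receptor gene FGFR3, with r from 0.996 to 0.997. All 5 had their highest median at 4 µM, as PTGDS did. LCN2 was followed by NET1, which encodes an exchange factor of the GTPase RhoA (r = 0.998), NPPC, ATOH8, HEYL and GDF15, and in 3 of these 5 (ATOH8, HEYL and GDF15) the median was lower at 4 µM than at 1 µM, as for LCN2. GDF15, a secreted stress cytokine, read a median of 807 untreated, 21184 at 1 µM and 14735 at 4 µM. APOD was followed by BMF, a pro-apoptotic BCL2 family gene (r = 0.998), TMEM158, SPINT1, SYNGR3 and CABP7. APOM had no such close followers, the best being ADAM10, a membrane protease gene, at r = 0.892.

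Most other secreted lipocalins could not be measured in these cells. Of 16 further genes of the family, 12 had no probe above background on at least 4 arrays, among them RBP4, the plasma retinol carrier, ORM1 and ORM2, which encode the acute-phase orosomucoids, and AMBP. RBP4 read 91 to 98.8 untreated and 92.4 to 118 at 4 µM. LCN1, LCN12, LCNL1 and C8G were tested. By limma with Benjamini-Hochberg adjustment over all detected probes, none of them passed at 1 µM (median log2 difference 0.05, against -0.03 over all detected probes), where 40.5% of probes were called (19.4% higher and 21.2% lower). Without untreated array 1 or 1 µM array 2, LCNL1 passed there (adjusted p = 0.0414 and 0.0292). At 4 µM, where 42.7% were called (21% higher and 21.6% lower), LCNL1 rose (log2 difference 0.87 ± 0.14, adjusted p = 4.28e-06) and the other three did not pass. LCNL1 read 97.3 to 135 untreated and 165 to 237 at 4 µM, with 1 of 4 untreated arrays above background, and it also rose from 1 µM to 4 µM (0.56, adjusted p = 0.00877), a contrast in which 9.28% of probes were called (4.52% higher and 4.76% lower). That last call was lost without 1 µM array 2 (adjusted p = 0.0501). C8G, which encodes a complement subunit, was under background on every untreated and 1 µM array and above it on all 4 µM arrays, at 129 to 137, and did not pass (adjusted p = 0.104). Of the 20 secreted lipocalin genes, 17 lie on chromosome 9, PTGDS and LCN2 included. Along the chromosome, LCNL1 is the next protein-coding RefSeq gene after PTGDS and LCN12 the one before it.

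**Figure D3:**
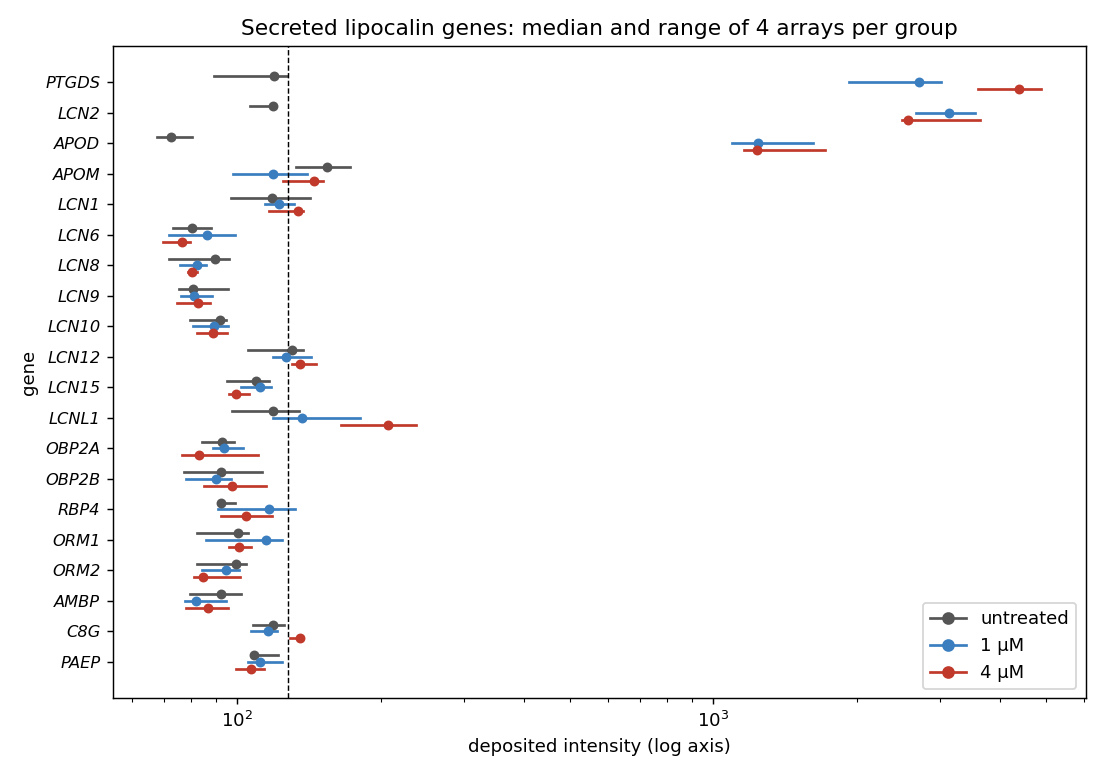
Deposited intensity (log axis) of the 20 secreted lipocalin genes, as the median (point) and range (line) of 4 arrays in untreated cells (grey), at 1 µM (blue) and at 4 µM (red), with the background threshold of 127.7 dashed. PTGDS, LCN2 and APOD are far above the threshold in treated cells, LCNL1 reaches 237 at 4 µM, and the other 16 genes read no higher than 173 on any array.

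The prostaglandin pathway around PTGDS went both ways. Of its 26 listed genes, 15 were tested, and 5 rose and 6 fell at each dose (median log2 difference -0.06 at 1 µM and -0.17 at 4 µM, or -0.08 at 4 µM with genes below background in 1 group at their bounds, against -0.03 over all detected probes at both, of which 19.4% were higher and 21.2% lower at 1 µM, and 21% and 21.6% at 4 µM). PTGS1, PTGS2, PTGIS and PTGDR2, among the 5 that rose at each dose, passed the detection filter only through treated arrays. They could only come out higher, so their adjusted p-values, here and below, are no separate evidence of a rise. Upstream of PTGDS, the cyclooxygenase gene PTGS1, whose product makes prostaglandin H2, was below background on every untreated array and on the deposited intensities at least 2.29-fold higher at 1 µM (adjusted p = 7.28e-12) and at least 2.28-fold higher at 4 µM (adjusted p = 5.56e-12). Its second detected probe passed at 1 µM (adjusted p = 0.0391) and did not at 4 µM (adjusted p = 0.197). Unless stated otherwise, the bounds from here on are after background correction. PTGS2, the inducible cyclooxygenase gene, read 74.3 to 91.4 untreated and 152 to 190 at 4 µM. It was at least 1.4-fold higher there (adjusted p = 1.26e-10), or 1.36-fold on the deposited intensities. Its second probe also passed at 4 µM (adjusted p = 0.000788) but not at 1 µM (adjusted p = 0.307), where the first did. HPGDS, the haematopoietic form of prostaglandin D synthase, was not above background on any 4 µM array.

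Among receptors, PTGDR2, one of the receptors of prostaglandin D2, read 70 to 80.9 untreated and 204 to 251 at 4 µM, and was at least 1.82-fold higher (adjusted p = 1.07e-14). PTGDR, the other prostaglandin D2 receptor gene, stayed at 91.3 to 106 at 4 µM, under background. PTGER4, a prostaglandin E2 receptor gene, fell by 1.44 ± 0.11 on the log2 scale at 4 µM (adjusted p = 4.98e-13). PTGIS, which encodes prostacyclin synthase, was at least 2.95-fold higher at 4 µM (adjusted p = 2.34e-16), and the cytosolic prostaglandin E synthase gene PTGES3 fell (-0.72 ± 0.12). PPARG, a nuclear receptor activated by a breakdown product of prostaglandin D2, fell by 1.53 ± 0.12 (adjusted p = 7.35e-13), and both of its detected probes fell.

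**Figure D4:**
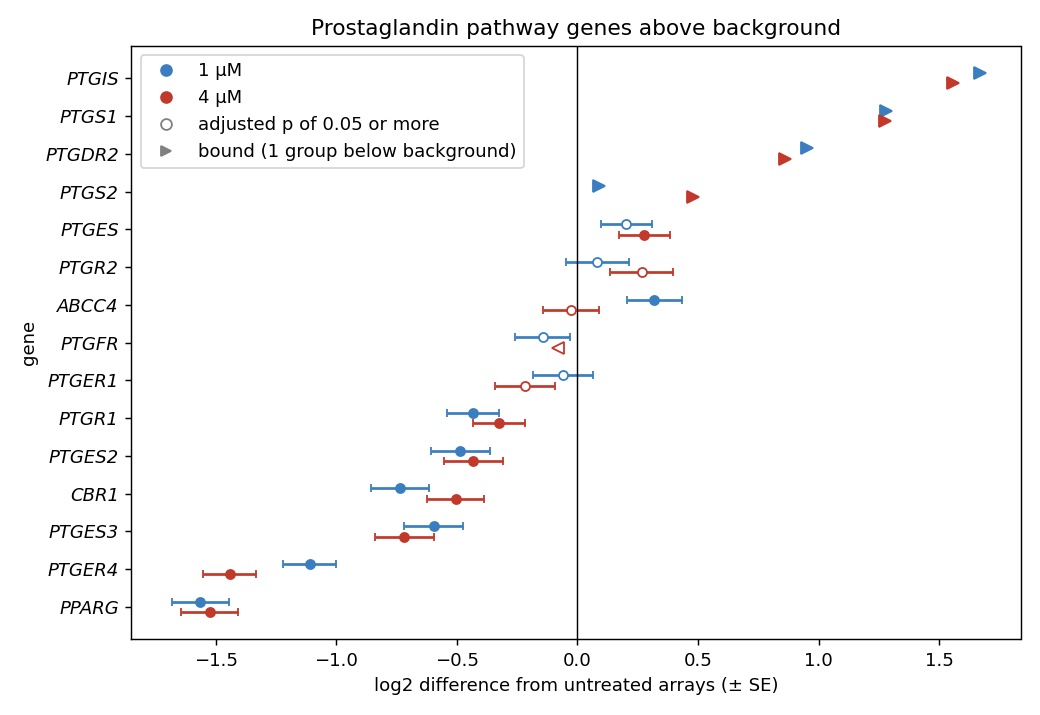
Log2 difference from untreated arrays (± standard error, n = 4 arrays per group) of the 15 detected prostaglandin pathway genes at 1 µM (blue) and 4 µM (red). Open symbols have an adjusted p of 0.05 or more, and triangles are bounds, after background correction, where all arrays of 1 group were below background. PTGIS, PTGDR2, PTGS1 and PTGS2 appear as bounds above 0 at both doses, while PPARG and PTGER4 lie below -1.

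Receptors and partners of lipocalins were mostly not measurable. Of 10 genes listed, 3 were tested and BSG alone passed, higher at both doses, as were 19.4% of all detected probes at 1 µM and 21% at 4 µM. BSG, which encodes basigin, a receptor of apolipoprotein D, rose by a log2 difference of 0.50 ± 0.12 at 1 µM (adjusted p = 0.000594) and 0.38 at 4 µM (adjusted p = 0.0077). The second call was lost without 4 µM array 1 (adjusted p = 0.0622). SLC22A17, the gene of a lipocalin 2 receptor, did not pass at 4 µM (0.22 ± 0.11, adjusted p = 0.116, with 2 of 4 untreated arrays above background). The megalin gene LRP2, an endocytic receptor of several lipocalins, was under background on all untreated and 4 µM arrays. MMP9, the gelatinase that forms a complex with lipocalin 2, was above background on 3 of 4 untreated arrays (125 to 150) and on no 4 µM array (77.4 to 100.3) and so did not reach the detection filter and was not tested.

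For the ligand of apolipoprotein M, 8 sphingosine 1-phosphate genes were tested, of which 4 rose and 3 fell at 4 µM, and 3 rose and 1 fell at 1 µM (2 fell there without untreated array 4, 1 µM array 2 or 4 µM array 4), where 21% of all detected probes were higher and 21.6% lower at 4 µM, and 19.4% and 21.2% at 1 µM. SPNS2, the exporter of sphingosine 1-phosphate, read 175 to 234 untreated and 2998 to 3361 at 4 µM, a 16.3-fold rise (log2 difference 4.03 ± 0.11, adjusted p = 1.98e-24). At 1 µM its median was 3847, with a log2 difference of 4.36. The lyase gene SGPL1 rose by 0.78, while the receptor gene S1PR5 was at least 1.78-fold lower (adjusted p = 1.5e-09) and S1PR1 fell (-0.42 ± 0.12, adjusted p = 0.00507). S1PR5 passed the detection filter only through untreated arrays, so it could only come out lower in treated cells.

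The intracellular relatives of lipocalins, which carry fatty acids and retinoids inside cells, had 6 genes tested of 16. At 4 µM 4 rose and 1 fell, and at 1 µM 3 rose and 1 fell (2 without 1 µM array 1), beside the same 21% and 21.6% of all detected probes at 4 µM, and 19.4% and 21.2% at 1 µM. RBP2, a retinol carrier of the intestine, was below background on all untreated arrays and at least 2.2-fold higher at 1 µM and at least 4.15-fold higher at 4 µM (adjusted p = 1.61e-16). It rose further from 1 µM to 4 µM (0.92, adjusted p = 7.71e-06), as did LCNL1. RBP2 and FABP7, both among the genes that rose at 4 µM, passed the detection filter only through treated arrays. They could only come out higher than in untreated cells. CRABP2, a retinoic acid carrier, rose by 1.56 ± 0.11 at 4 µM (adjusted p = 1.33e-13), and FABP5, a fatty acid carrier, fell by 1.25 ± 0.11 (adjusted p = 3.69e-11).

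Of 6 ductal markers all were detected, with the keratin genes KRT19, KRT8, KRT18 and KRT7 above background on every array, and their summed intensity was 39356 to 48971 untreated, 68639 to 80815 at 1 µM and 64098 to 77599 at 4 µM. Neutrophils are a known source of lipocalin 2, and of 4 neutrophil markers MPO, CSF3R and CD177 were not detected, ELANE read 123 to 149 untreated and 123 to 155 at 4 µM, and their summed intensity was 432 to 443 untreated, 386 to 454 at 1 µM and 408 to 466 at 4 µM. Of 3 fibroblast markers, COL1A1 and LUM rose at both doses, as did 19.4% of all detected probes at 1 µM and 21% at 4 µM. LUM passed the detection filter only through treated arrays, so it could only come out higher. The summed intensity with DCN was 342 to 405 untreated, 599 to 696 at 1 µM and 818 to 908 at 4 µM. Of 3 macrophage markers 2 were detected, with sums of 4419 to 4618 untreated, 1814 to 2399 at 1 µM and 1890 to 2231 at 4 µM, and no lymphocyte or endothelial marker was. Of 3 oligodendrocyte and glial markers MBP alone was detected, and it did not pass at either dose. MBP read 5245 to 6343 untreated, 4367 to 5588 at 1 µM and 5028 to 6675 at 4 µM. The part of these marker lists in the results was not tested. All samples were of the PANC-1 line, so a marker names a gene here and not a cell type known to be present. Fewer cells with a signal and less RNA per cell cannot be told apart in such bulk samples. TCF3, the gene that encodes E47, read lower in treated cells (log2 difference -0.79 ± 0.12 at 1 µM, adjusted p = 2.1e-06, and -1.44 ± 0.12 at 4 µM, adjusted p = 6.73e-12), and whether its probe reads the introduced transcript could not be told from the sources used here.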

How the data were processed

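Total RNA of 12 PANC-1 samples was measured on Illumina bead arrays, in 3 groups of 4 taken from the sample titles. The authors' deposited intensity values are linear, and the submitters' processing notes name GenomeStudio. Sorted values differed between the 12 columns by under 1% at 99.99% of ranks, as quantile normalization leaves them. A further 24 columns match no sample label and were not used.

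Of 47323 probes, 30113 have 1 annotated gene, and 30074 of those had symbols updated from RefSeq. Intensities were corrected with normexp on signals alone (offset 50) and taken to log2. Background was the mode of the intensities (101.8, SD 15.8) plus 1.645 SD. The density setting for the mode was chosen to give the 127.7 of the members' rule, from several tried, of which 2 others gave 123.8 and 128.9. Probes above it on at least 4 of 12 arrays were kept (22807).

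Group means were fitted to all arrays with limma (3.58.1, R 4.3.3), with Benjamini-Hochberg adjustment over all detected probes, two-sided, called below 0.05. The fit was tested on simulated data. A gene is represented by its detected probe with the highest mean. Members and lists were chosen with earlier results of these data known, and the named genes are the members, up to 4 called genes with the largest change in each list, 11 genes always given and 5 genes most like each member. Further genes (PTGS1, PTGES3, NFKBIZ, C8G, FABP7, SAA1, SLC40A1, LCN1, LCN12, ORM1, ORM2, AMBP, the markers and neighbouring genes) were named after their values were seen. Replicate numbers showed no clear pairing over all detected probes (residual correlations of -0.08 to 0.15 in 12 pairs), which does not exclude pairing for single genes. For PTGDS, replicate 4 read lowest and replicate 3 next lowest in every group, the untreated values being under background. The cause of that order was not tested. Alternatives changed the background correction, detection filter, probe choice, replicate block and each array in turn. Probe positions and depth are not given, and the number of arrays limits the precision.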

Additional observations from a re-analysis of the deposited data

Results flagged for a closer look

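In groups of 4 arrays, 102 groups of the members and named list genes were checked for an array that lay far from the others, and 11 had one, where chance gives about 1 in 20. LCN2 read 3628 on 4 µM array 1 against 2495 to 2617 on the other three, and 106.4 on untreated array 2 against 118.4 to 120.0, all of the latter under background. On the same 4 µM array 1, BSG read 7806 against 5645 to 5742 and FABP5 read 866 against 980.4 to 986.7. FABP5 was also low on untreated array 3, at 1889 against 2349 to 2453.

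The remaining values concern pathway genes. PTGIS read 490 on 1 µM array 2 against 341 to 357, SOCS3 read 889.9 on 1 µM array 4 against 795 to 806, and CEBPB read 17171 on 4 µM array 2 against 14920.3 to 15192. In untreated cells S1PR5 read 163 on array 2 against 233 to 248, DHRS3 read 1335 on array 4 against 2132 to 2270.4, and S1PR1 read 213 on array 4 against 251 to 259. All treated arrays of PTGDS, LCN2 and APOD lay above all untreated ones, so leaving out any array could not change that order.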

How the results depend on the processing

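With all alternatives that kept the genes, PTGDS, LCN2 and APOD stayed higher in treated cells. The mean of APOM stayed lower, but its groups overlapped. At 4 µM its log2 difference was -0.20 to -0.06 when single arrays were left out, against a standard error of 0.12 with all arrays. As no treated array of PTGDS, LCN2 or APOD overlapped an untreated one, their direction could hardly have changed. With an offset of 16 in the background correction the same calculation gave larger log2 values, 4.95 (PTGDS), 5.24 (LCN2) and 3.93 (APOD) at 1 µM and 5.71, 5.07 and 3.97 at 4 µM. For PTGDS and LCN2 these exceed the ratios of mean deposited intensities (22.7 and 26.9 at 1 µM, 37.9 and 24.2 at 4 µM), so they are no lower bounds on that scale. The lowest bounds at 4 µM, without background correction, were 33.6-fold for PTGDS, 21.7-fold for LCN2 and 10.3-fold for APOD. No member had a value when probes had to be above background on all 12 arrays, as each member was above it on 8 of them. A lower background estimate, added after the data were seen, gave at least 38-fold for PTGDS at 4 µM.

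Of the 71 tested list genes, 26 were higher and 15 lower at 1 µM, 28 and 17 at 4 µM, and 7 and 3 between the doses. Requiring all 12 arrays left 17 higher at 1 µM, 18 at 4 µM and 2 between the doses, with 6 lower between the doses. That last count was also 6 with no background correction and at 3 SD. Leaving out single arrays gave 4 to 8 higher and 2 to 6 lower list genes between the doses (4 higher without 1 µM array 2 or 4 µM array 2, and 5 and 6 lower without untreated array 4 and 1 µM array 3). Over all detected probes it gave 701 to 1203 lower between the doses, against 1085 with all arrays, the low counts without 1 µM array 4 or 4 µM array 2, 3 or 4. The replicate block called 4836 probes higher and 4985 lower at 4 µM, against 4800 and 4937 without it, and it changed no call of a named gene. The cause of these changes was not tested.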

Other observations

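The genes next to the members were looked at whatever list they belonged to. Of the 5 nearest protein-coding genes on each side of PTGDS, 9 were tested and 5 rose and 2 fell at 4 µM. CLIC3, a chloride channel family gene soon after PTGDS, rose by a log2 difference of 3.77 ± 0.12 at 4 µM and by 3.51 at 1 µM, and ABCA2, the gene of a lipid transporter next to CLIC3, by 1.55 and 1.41 from a group with 2 of 4 untreated arrays above background. Next to LCN2, 9 were tested and 3 rose and 3 fell at 4 µM. BBLN directly after LCN2 rose by 1.48, while PTGES2 directly before it, a prostaglandin E synthase gene, fell (-0.43). Next to APOD, 7 were tested and 4 rose at 4 µM, among them PPP1R2 directly before it (1.42) and the transferrin receptor gene TFRC (0.68), and none fell. Next to APOM, 6 were tested and none passed at 4 µM by limma, while 2 rose and 1 fell at 1 µM. At 1 µM 4 rose and 1 fell next to PTGDS, 4 rose and 2 fell next to LCN2, and 3 rose and none fell next to APOD. Of all detected probes, 21% were called higher and 21.6% lower at 4 µM, and 19.4% and 21.2% at 1 µM. These neighbours were looked up after the members' values had been seen.

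Other genes of iron and of host defence were measured beside LCN2. Of 12 tested iron genes 4 rose and 1 fell at 4 µM (against 21% and 21.6% of all detected probes, here and for the lists that follow). At 1 µM 5 rose and 3 fell (against 19.4% and 21.2%, likewise), and 3 to 5 rose when single arrays were left out. At 4 µM the haem oxygenase gene HMOX1 rose by 1.13 ± 0.11 (adjusted p = 1.58e-10). The mitochondrial iron importer gene SLC25A37 rose by 1.47 ± 0.11 (adjusted p = 6.19e-13). SLC40A1 did not pass, but its second detected probe was higher at 4 µM (0.86, adjusted p = 2.27e-06), from an untreated median of 81.7. Of 11 tested acute-phase and antimicrobial genes 5 rose and 2 fell at 4 µM. At 1 µM 5 rose and 1 fell (0 or 1 when single arrays were left out). S100A9, which with S100A8 encodes the zinc-binding protein calprotectin, was at least 18.1-fold higher at 4 µM (adjusted p = 9.31e-23). S100A9 and SAA1, among the 5 that rose, passed the detection filter only through treated arrays and so could only come out higher. S100A8 was above background on 2 of 4 untreated arrays (97.2 to 142), so no size is given for its rise from them (adjusted p = 2.31e-23 at 4 µM), and it rose from 1 µM to 4 µM (1.19, adjusted p = 1.02e-06). The transcription factor gene CEBPB rose by 1.46 and the cytokine signalling inhibitor gene SOCS3 by 1.83, of which the second SOCS3 probe did not pass (0.35, adjusted p = 0.0633). NFKBIZ, a co-activator of LCN2 in inflammation, did not pass at 4 µM (-0.27, adjusted p = 0.0611).

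Retinoid genes went both ways, with 4 of 12 tested higher and 4 lower at 4 µM, and 4 higher and 3 lower at 1 µM. The changes below are at 4 µM. ALDH1A3, which makes retinoic acid, rose by 1.73 ± 0.13 (adjusted p = 2.48e-13), and the retinoic acid hydroxylase genes CYP26A1 and CYP26B1 rose by 1.66 and 1.23, CYP26A1 from a group with 2 of 4 arrays above background. CYP26A1 was also higher at 4 µM than at 1 µM (0.66, adjusted p = 0.000255). DHRS3, a retinal reductase gene, fell by 1.18 ± 0.13 (adjusted p = 2.83e-09).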
